A study of Mus musculus with 29 samples.

Results

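The Ly6C low macrophages of the untreated wild-type liver were compared with those of the untreated wild-type spleen. The members were the autosomal genes that reached 1 RPM (a read count scaled to the library's total) in at least 3 of the 6 libraries, which were 10204 of the 23930 genes in the table. Each organ gave 3 libraries, out of 29 in the series. Both groups came from C57BL/6 mice without any treatment, and both were given as Ly6C low, CD11b(+), Fcgr4(+), Ly6G(-), SiglecF(-) and NK1.1(-). The sorting methods of the study name Ly6G and NK1.1 antibodies for spleen cells only, and SiglecF for neither organ. The other libraries of the series were Ly6C high macrophages and Kupffer cells (KCs) of the same genotype and macrophages lacking RNase T2. The ages of the mice, and whether a replicate was 1 mouse or a pool, were not given in the sources used here, so that the p-values measure the spread between libraries. Spleens were minced with glass slides, depleted with magnetic beads of cells carrying lineage antigens (among them CD3, NK1.1, Ly6G and TER-119), and sorted. Red cell lysis was described for all cell pellets. Livers were minced and dissociated on a heated mechanical dissociator, cleared of debris, and sorted with an additional F4/80 gate. Organ and preparation therefore cannot be told apart in any difference below.

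Ly6C low monocytes patrol the inner wall of blood vessels, depend on the nuclear receptor Nr4a1, and carry the Fc receptor Fcgr4 that is used in the sort. In tissues, monocyte-derived cells can take on macrophage traits such as antigen presentation on MHC class II, uptake of dying cells and secretion of chemokines. The liver also holds KCs, the resident macrophages of its sinusoids, which express the lectin Clec4f, and the spleen holds red pulp macrophages that recycle iron. Genes used for sorting (Fcgr4, Itgam, Adgre1 and Klrb1c) describe the gate and are no finding. Where a list holds one of them, its count without it is given if a call is lost. No such count was made for genes of the other antigens of the sort or the bead depletion, such as Ly6C, Ly6G, SiglecF and CD3.

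The liver libraries held 11175843 to 12081069 reads and the spleen libraries 14237202 to 14572065 reads, so that 3 reads stood for 0.248 to 0.268 RPM in liver and 0.206 to 0.211 RPM in spleen. Between 15607 and 16265 genes were detected in liver and between 13719 and 13992 in spleen. Every pair of replicates differed beyond counting error (chi-square of 11 to 45.8 per gene on average). The 10 Y-linked genes summed to 52.7 and 52.0 RPM in liver replicates 2 and 3 and to 0 in the other 4 libraries of this comparison, while Xist was read in all 6 libraries at 375 to 695 RPM. Liver replicates 2 and 3 may therefore be pools of both sexes, so that sex cannot be fully told apart from organ either. Counts that the text leads with are also given with liver replicate 1 alone against the spleen. This was done where they changed by more than 1.5 times, for the lipid list in words only.

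In total, 3482 of the 10204 genes (34.1%) differed by more than 1.5-fold at an adjusted p below 0.05 (limma with Benjamini-Hochberg adjustment), the threshold for all calls here. Of these, 1898 (18.6%) were higher in liver and 1584 (15.5%) in spleen. These shares are the background for each gene list below. Every liver library lay above every spleen library for 2523 genes (24.7%) and below for 3032 genes (29.7%). The median log2 fold change over all genes was -0.02. With only liver replicate 1, 1135 genes were called higher and 974 lower. A difference in a sorted population can arise from fewer cells of one type or from less RNA per cell, and these cannot be told apart in bulk libraries. The filter itself let in 411 genes through their liver values alone and 118 through their spleen values alone, of which 399 were called higher and 109 lower, so that such calls were set by the filter. Of the genes named below, Alb, Ccl17, Cd207, Cdh5, Clec4f, Clec4g, Gas6, Gpnmb, Ifnb1, Igfbp7, Jam2, Mmp13, Nxpe5 and Spp1 passed only through liver and Camp, Car1, Ccr3, Cxcr2, Lcn2, Ltf, Ngp, Prg2 and Timd4 only through spleen, and their differences are descriptions, given with no p-value. The endothelial markers Tek, Ptprb, Emcn, Gpr182 and Robo4, given below at 0 in spleen, also passed only through liver. Among the 411 were 6 matrix and protease, 5 chemokine, 4 cytokine, 4 alternative activation and 3 tissue macrophage genes, all called higher, and outside them 11 of 22, 14 of 17, 12 of 22, 12 of 16 and 11 of 20 genes of these lists were called higher. At its edge, the third-highest of the 6 libraries was at 1.03 RPM for Angpt1, inside, and at 0.993 RPM for 0610038B21Rik, outside.

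**Figure D1:**
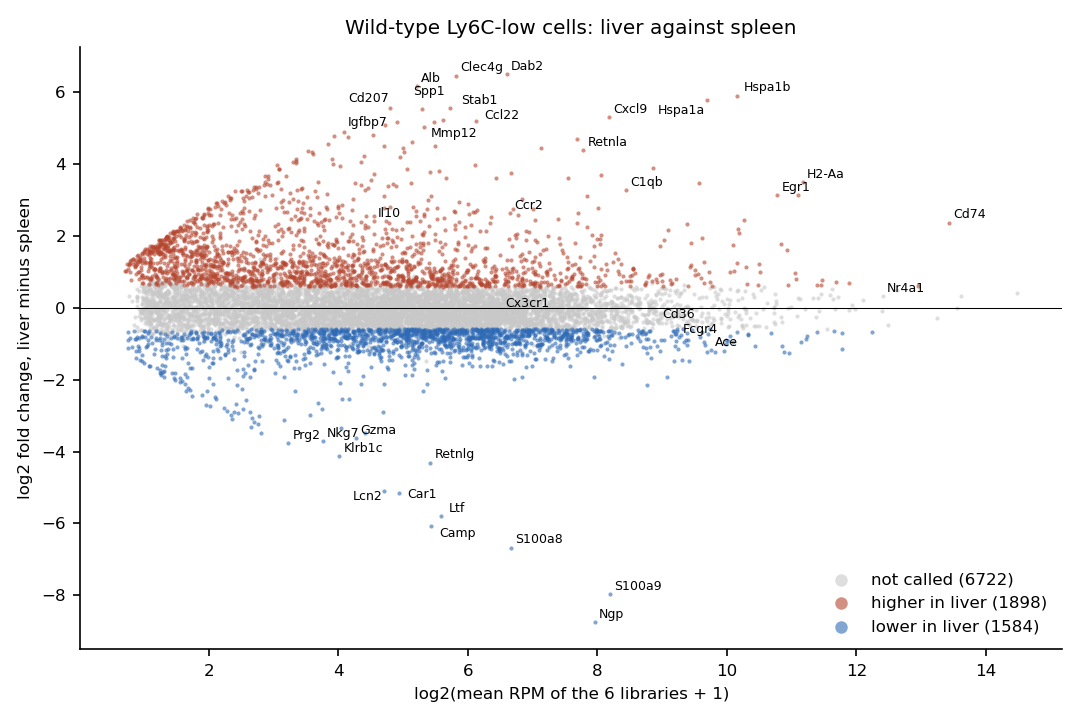
Each point is 1 of the 10204 genes, with the log2 fold change of liver over spleen plotted against the log2 of its mean RPM over the 6 libraries (+ 1), and with the 1898 genes called higher and the 1584 called lower in colour. Dab2 stands at 6.49 at the upper end and S100a9 at -7.97 near the lower end.

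The macrophage label was checked against 12 macrophage markers. Their summed level was 18837 to 23849 RPM in liver and 22125 to 23392 RPM in spleen, with no marker at 0, so that the ranges overlapped, and 5 were called higher and 1 lower in liver (4 and 1 of 10 without Adgre1 and Itgam). Clec4f, the lectin that defines KCs, was at 15.1, 4.01 and 5.19 RPM in liver and 0, 0 and 0 RPM in spleen, against 1674 to 5470.5 RPM in the KC libraries. No spleen library held a read of Clec4f, and the liver libraries lay far below the KCs. The 286 liver reads against 0 put Clec4f at least 118-fold higher in liver, with 3 reads over the spleen group as the floor. Without liver replicate 1 this bound was 66-fold. The 9 core KC markers summed to 119 to 166 RPM in liver, 39.7 to 65.8 RPM in spleen and 6919 to 20266 RPM in the KCs, with 2 higher and 1 lower of the 4 tested that did not pass the filter through 1 organ alone. The 8 red pulp macrophage markers summed to 1911 to 2091 RPM in liver and 2030 to 2460 RPM in spleen, with 2 of 8 called higher and 4 lower (1 and 4 of 7 without Adgre1).

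Markers of other cell types differed between the organs. In spleen, 15 neutrophil markers summed to 1232 to 2634 RPM against 83.1 to 97.8 RPM in liver, and 12 of the 13 tested were lower in liver. NK cell markers summed to 212 to 325 RPM in spleen and 106 to 165 RPM in liver, with 11 of 12 lower. Without Klrb1c they summed to 191 to 288 RPM in spleen and 104 to 164 RPM in liver, with 10 of 11 lower. Erythroid markers summed to 38.2 to 99.5 RPM in spleen and 0.911 to 4.71 RPM in liver, where Klf1, Epb42 and Rhag were among those at 0. T cell markers summed to 42.6 to 53.9 RPM in spleen and 17.1 to 35.5 RPM in liver, with 1 of 6 higher and 5 lower. B cell markers summed to 134 to 154 RPM in spleen and 74.4 to 102 RPM in liver (1 of 3 lower), and basophil and mast cell markers to 23 to 44.1 RPM and 9.69 to 10.7 RPM (1 of 5 higher and 3 lower). In liver, endothelial markers had a sum of 163 to 457 RPM against 2.88 to 6.71 RPM, with Tek, Ptprb, Emcn, Gpr182 and Robo4 at 0 in spleen. Hepatocyte markers summed to 53.9 to 233 RPM in liver and 0.07 to 0.274 RPM in spleen, where 11 of 13 were at 0. Conventional dendritic cell markers summed to 744 to 861 RPM in liver and 196 to 236 RPM in spleen, and 9 of 12 were higher. The hepatocyte and endothelial sums were both lowest in liver replicate 1. The filter set part of these counts, since 6 neutrophil, 4 NK cell, 4 T cell and 3 basophil and mast cell markers and Car1, the 1 erythroid marker tested, passed it only through spleen. Of the 14 endothelial markers tested, 12 passed only through liver, as did all 6 hepatocyte markers tested.

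**Figure D2:**
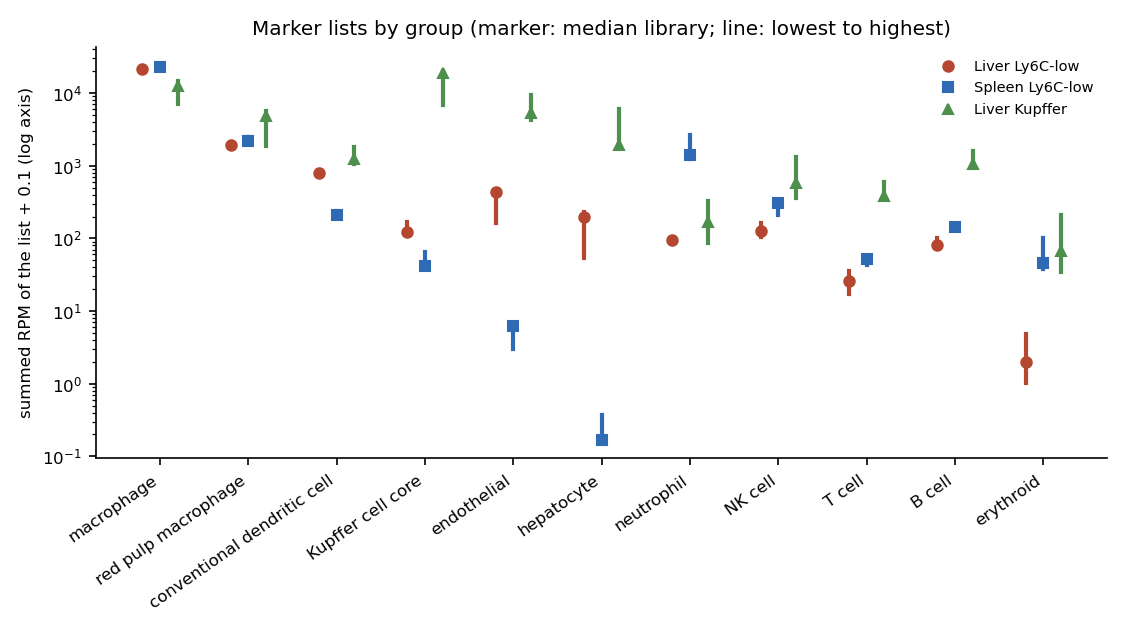
Summed RPM (+ 0.1, log axis) of the markers of each cell type in liver Ly6C low, spleen Ly6C low and KC libraries, with the symbol at the median library and the line from the lowest to the highest. Neutrophil and erythroid sums are higher in all 3 spleen libraries, and endothelial, hepatocyte and dendritic cell sums are higher in all 3 liver libraries.

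The remaining marker lists were small or split, and part of their calls came from genes that passed the filter through 1 organ alone (3 of the cholangiocyte list, 3 of the stellate cell and fibroblast list and 2, 2 and 1 of the lower genes of the eosinophil, platelet and plasma cell lists). The plasmacytoid dendritic cell list had no call among 3 tested genes (12.8 to 28.9 RPM in liver and 22.9 to 38.4 RPM in spleen). Of the eosinophil list, 2 genes were higher and 3 lower of 5 (138 to 337 RPM against 186 to 443 RPM). The platelet list had 2 higher and 3 lower of 5 (71.4 to 149 RPM against 22 to 37.9 RPM), and the plasma cell list 1 higher and 2 lower of 4 (50.1 to 78.6 RPM against 52.6 to 64.7 RPM). The cholangiocyte list had 4 higher of 5 (27 to 33 RPM against 11.6 to 13.2 RPM), and the stellate cell and fibroblast list 2 higher and 1 lower of 4 (9.19 to 22 RPM against 3.43 to 5.27 RPM).

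The genes with the largest increase in liver included scavenger receptors and lectins. Dab2, an endocytic adaptor, was at 196, 195 and 182 RPM in liver and 1.68, 0.274 and 2.04 RPM in spleen. It was close to absent in spleen, and the liver libraries were nearly equal. The increase (log2 fold change 6.49 ± 0.29, adjusted p = 5.29e-07) was the largest fitted increase among the named genes. Stab1, a scavenger receptor of sinusoidal endothelium and tissue macrophages, was at 68.1, 122 and 119 RPM in liver and 1.12, 1.24 and 1.26 RPM in spleen. Its liver libraries were all higher, with replicate 1 the lowest (log2 fold change 5.55 ± 0.25, adjusted p = 5.29e-07). Cd207, encoding langerin, was at 39.8, 56.6 and 64.2 RPM in liver and 0.21, 0.206 and 0.07 RPM in spleen, close to absent from all spleen libraries (log2 fold change 5.55 ± 0.23). In the KC libraries Dab2 was at 625 to 1589 RPM, Stab1 at 654 to 1227 RPM and Cd207 at 166 to 229.6 RPM, above the Ly6C low liver libraries in each case.

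Other genes of this group are known from parenchymal or vascular cells. Clec4g, a lectin of sinusoidal endothelium, was at 51, 143 and 138 RPM in liver and 0.349, 0.206 and 0 RPM in spleen. Igfbp7, a secreted protein abundant in vessels, was at 22.2, 75.4 and 75.9 RPM in liver and 0.419, 0.618 and 0.351 RPM in spleen. Both were lowest in liver replicate 1, as were the endothelial marker sums, and did not overlap between the organs (log2 fold change 6.45 ± 0.37 for Clec4g and log2 fold change 5.17 ± 0.42 for Igfbp7, which was 5.77 without liver replicate 1). Alb, which encodes albumin, the main plasma protein made by hepatocytes, was at 44.3, 87.1 and 86.1 RPM in liver and 0, 0 and 0 RPM in spleen. The 2496 liver reads against 0 put Alb at least 1033-fold higher, taking 3 reads over the group as the floor. Alb and Clec4g are members of the hepatocyte and endothelial lists, so that they make up part of those sums. The part of such cells or of their RNA in the result was not tested.

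The largest decreases were in genes of granulocytes and their precursors. S100a9 and S100a8, the subunits of calprotectin, lie next to each other on chromosome 3. S100a9 was at 0.083, 2.09 and 1.97 RPM in liver and 499, 864 and 394 RPM in spleen. S100a8 was at 0.083, 1.57 and 0.984 RPM in liver and 136, 329 and 139 RPM in spleen. Spleen replicate 2 was the highest library for both genes, and no liver library exceeded 2.09 RPM (log2 fold change -7.97 ± 0.41, adjusted p = 1.32e-06 for S100a9 and log2 fold change -6.67 ± 0.39, adjusted p = 2.19e-06 for S100a8). Ngp, a granule protein, was at 0.166, 0 and 0.089 RPM in liver and 405, 753 and 332 RPM in spleen. With 21500 reads in spleen and 3 in liver, its level was 5773-fold higher in spleen, with a counting interval of 1975 to 27995. The granule genes Camp (-6.08), Ltf (-5.78) and Lcn2 (-5.11) and the secreted Retnlg (-4.31), all in log2 units, were lower too.

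Genes of other cell types completed the list of largest decreases. Car1, an erythroid carbonic anhydrase, was at 0.083, 0.61 and 0.895 RPM in liver and 44.2, 94.7 and 37 RPM in spleen. Prg2, an eosinophil granule protein, was at 0.083, 0.087 and 0.179 RPM in liver and 16, 27.6 and 6.39 RPM in spleen. Gzma, a granzyme of cytotoxic lymphocytes, was at 1.99, 1.74 and 1.7 RPM in liver and 43.5, 34.9 and 26.8 RPM in spleen. All 3 genes were higher in every spleen library, with log2 fold changes of -5.17, -3.76 and -3.62. Nkg7, of cytotoxic granules, had a log2 fold change of -3.72. Klrb1c, which encodes NK1.1 and was used in the sort, was at 1.32, 0.61 and 0.268 RPM in liver and 37, 31.1 and 20.9 RPM in spleen. Ngp, Car1, Klrb1c and Prg2 are themselves members of the neutrophil, erythroid, NK cell and eosinophil lists, so that they make up part of the sums above. The eosinophil sums overlapped between the organs. The contribution of such cells to these decreases was not tested.

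**Figure D3:**
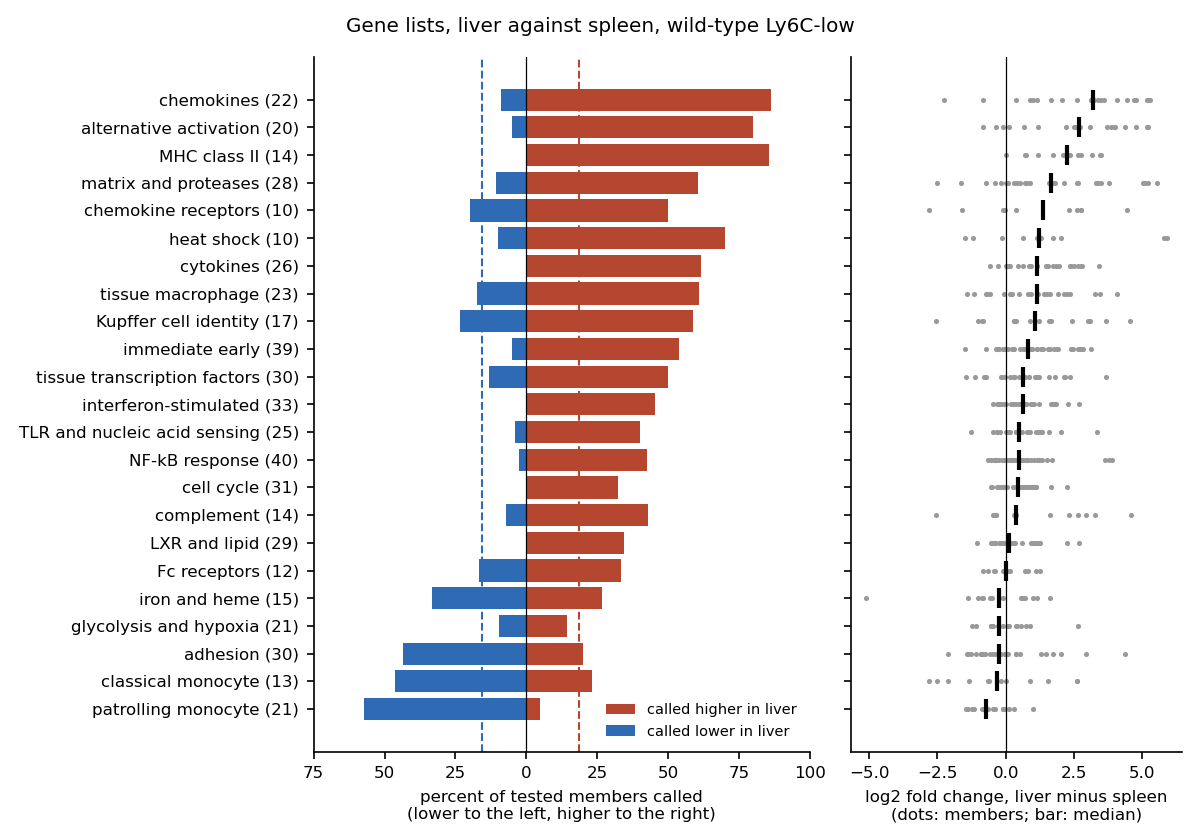
For each gene list, with its number of tested members, the left panel gives the percent called higher (to the right) and lower (to the left), with dashed lines at the 18.6% and 15.5% of all tested genes, and the right panel the log2 fold change of each member (points) and their median (bar). Chemokine and alternative activation lists have medians of 3.18 and 2.67, and the patrolling monocyte list has a median of -0.71, against -0.02 for all genes.

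Of the 21 genes on the patrolling monocyte list, 12 were lower and 1 was higher in liver, with a median log2 fold change of -0.71 (15.5% and 18.6% in the background). Ace, the angiotensin-converting enzyme that marks Ly6C low monocytes, was at 607, 489 and 459 RPM in liver and 1218, 1297 and 1099 RPM in spleen. All liver libraries were below all spleen libraries (log2 fold change -1.18 ± 0.13, adjusted p = 9.64e-05). Treml4, a receptor that binds dying cells, was at 1144, 749 and 915 RPM in liver and 1548, 1442 and 1867 RPM in spleen and was also separated (log2 fold change -0.76 ± 0.16, adjusted p = 0.0042). Ceacam1, an adhesion molecule of monocytes, was at 1245, 1081 and 979 RPM in liver and 2605, 2627 and 2726 RPM in spleen, lower in each liver library (log2 fold change -1.23 ± 0.12, adjusted p = 6.09e-05). Cd300e (-1.21), Pglyrp1 (-1.39), the transcription factor Pou2f2 (-1.46) and Spn, encoding CD43 (-0.74), were lower as well. When all 29 libraries shared 1 limma estimate of spread, Treml4 (adjusted p = 0.102), Ceacam1 (0.0899), Cd300e (0.0526) and Spn (0.0988) were not called, while Pglyrp1 and Pou2f2 kept their calls.

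Not every gene of that identity fell. Nr4a1, the nuclear receptor required for this lineage, was at 5025, 6375 and 6413 RPM in liver and 5028, 4421 and 5241 RPM in spleen. Spleen replicate 3 was above liver replicate 1, so that the groups overlapped (log2 fold change 0.32 ± 0.17, adjusted p = 0.149). Cx3cr1, the fractalkine receptor, was at 106, 70.5 and 82 RPM in liver and 98, 66.8 and 122 RPM in spleen, with all liver values inside the range of the spleen values (log2 fold change -0.087 ± 0.22, adjusted p = 0.773). Cd36, a scavenger receptor for lipids, was lower in each liver library at 421, 429 and 388 RPM in liver and 563, 604 and 522 RPM in spleen, but its change stayed under 1.5-fold (log2 fold change -0.4 ± 0.11, adjusted p = 0.0158). Nxpe5, set by the filter, was the only list gene called higher (1.01), and was named after its values were seen. The number of lower genes was 7 with liver replicate 1 alone, and 4 when all 29 libraries shared 1 estimate of spread, where Ace had an adjusted p of 0.255.

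Of 13 genes of classical monocytes, 3 were higher and 6 lower in liver, against 18.6% and 15.5% of all tested genes. Ccr2, the receptor that brings monocytes out of the bone marrow, was at 219, 142 and 154 RPM in liver and 23.8, 31.9 and 26.9 RPM in spleen. Every liver library was above the spleen, and replicate 1 was the highest (log2 fold change 2.62 ± 0.17, adjusted p = 4.08e-06). Fn1, encoding fibronectin, was at 221, 391 and 461 RPM in liver and 59.5, 55.7 and 53.7 RPM in spleen (log2 fold change 2.62 ± 0.25, adjusted p = 4.56e-05). Cd177 (-2.81) and Mmp8 (-2.53), both known from neutrophils, and Hp, encoding haptoglobin (-1.36), were lower in liver beside the neutrophil sums given above.

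The adhesion list had 6 of 30 genes higher and 13 lower (8 lower in the fit of all 29 libraries). Outside the 1 gene that passed the filter only through liver, 5 of 29 were higher and 13 lower. Itgal, the alpha chain of LFA-1, by which patrolling monocytes crawl on endothelium, was at 1632, 1678 and 1649.7 RPM in liver and 3525, 2483 and 3412 RPM in spleen. Itgb2, its beta chain, was at 1257, 1130.4 and 1041 RPM in liver and 2881, 2646 and 2935 RPM in spleen. Both subunits were lower in every liver library (log2 fold change -0.87 ± 0.16, adjusted p = 0.00187 for Itgal and log2 fold change -1.26 ± 0.12, adjusted p = 5.07e-05 for Itgb2). Itgb3 (-1.39) and Vcam1 (-1.41) were lower too. In contrast, Itga6, an alpha chain of laminin receptors, was at 76.2, 94.5 and 135 RPM in liver and 16, 10.3 and 11.6 RPM in spleen and was higher in every liver library (log2 fold change 2.94 ± 0.24, adjusted p = 1.68e-05). The junctional molecules F11r (2.04) and Jam2 were higher as well. For Jam2, 728 liver reads against 1 spleen read gave a ratio of 904, with a counting interval of 162 to 35746.

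Tissue macrophage genes had 14 of 23 higher and 4 lower (median 1.14), or 13 of 22 and 4 without Adgre1. C1qb, a chain of the complement component C1q, was at 433, 761 and 689.8 RPM in liver and 74.2, 65.5 and 53.5 RPM in spleen. The liver libraries were all above the spleen libraries, with replicate 1 the lowest of the liver (log2 fold change 3.28 ± 0.22, adjusted p = 6.12e-06). The amplicon for C1qa was near 0 in these libraries (5 reads in liver and 1 in spleen) and also in the KCs (0.262 to 0.573 RPM), so that it gave no comparison. Axl, a receptor for dying cells, was at 87.9, 107 and 106 RPM in liver and 24.7, 17.7 and 21.6 RPM in spleen (log2 fold change 2.23 ± 0.17, adjusted p = 1.08e-05). Mertk, of the same receptor family, was at 15.1, 17.7 and 21.8 RPM in liver and 7.76, 4.25 and 5.97 RPM in spleen (log2 fold change 1.51 ± 0.24, adjusted p = 8.07e-04). Their ligand Gas6 was at 12.3, 14.6 and 11.1 RPM in liver and 0.21, 0.274 and 0.351 RPM in spleen (log2 fold change 3.44 ± 0.21). The 3 genes did not overlap between the organs. With liver replicate 1 alone Mertk had a log2 fold change of 1.23 and an adjusted p of 0.0757.

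Gpnmb, a lysosomal glycoprotein (4.05), and the transcription factor Maf (2.34) also rose. Csf1r, the receptor for the macrophage growth factor, was in contrast lower in liver, at 923, 977 and 943 RPM in liver and 1982, 1380.5 and 1519 RPM in spleen (log2 fold change -0.72 ± 0.15, adjusted p = 0.00397). In the fit of all 29 libraries Csf1r was not called (log2 fold change -0.69, adjusted p = 0.0867). The cathepsin gene Ctsb was at 2175, 2129.7 and 2097 RPM in liver and 5123, 4848 and 4729 RPM in spleen, with each liver library below the spleen (log2 fold change -1.16 ± 0.12, adjusted p = 8.52e-05). Vcam1 and Tgfbr2 (-0.7), the receptor for TGF-beta, were the other genes of the list that fell.

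Of the KC identity list, 10 of 17 genes were higher and 4 were lower in liver (8 and 3 of the 14 whose calls the filter did not set), with a median of 1.07 (7 and 2 with liver replicate 1 alone). Id3, a transcription factor of KCs, was at 331, 521 and 625 RPM in liver and 45.8, 33.2 and 33.7 RPM in spleen. The liver libraries were above the spleen libraries and below the KC level of 691 to 828 RPM (log2 fold change 3.69 ± 0.24, adjusted p = 4.08e-06). Folr2, a folate receptor, was at 19.1, 21 and 17.4 RPM in liver and 2.87, 0.274 and 1.9 RPM in spleen (log2 fold change 3.08 ± 0.36, adjusted p = 1.46e-04). Clec1b, a lectin of KCs and platelets, was at 25.1, 31.5 and 31.5 RPM in liver and 5.31, 4.25 and 4.99 RPM in spleen (log2 fold change 2.41 ± 0.19, adjusted p = 1.28e-05). Both were far below the KC level, which was 536 to 1475 RPM for Folr2 and 297 to 562 RPM for Clec1b. Cdh5, encoding VE-cadherin, which KCs share with endothelium, was at 14.4, 26.7 and 38.9 RPM in liver and 0.07, 0.137 and 0.14 RPM in spleen (log2 fold change 4.55 ± 0.33). The part of endothelial cells in this difference was not tested.

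Other KC genes were lower, overlapped or had calls that rested on single libraries. Timd4, a receptor of embryonically seeded macrophages, was at 0.911, 0.261 and 0.537 RPM in liver and 3, 1.37 and 1.54 RPM in spleen, close to its floor in liver and at 166 to 448 RPM in the KCs. It passed the filter only through spleen (log2 fold change -0.89 ± 0.28). Cd5l, a secreted macrophage protein, was at 46.6, 47 and 70.7 RPM in liver and 41.5, 24.7 and 24.4 RPM in spleen (log2 fold change 0.9 ± 0.24, adjusted p = 0.0129), and its call was lost without liver replicate 3 (adjusted p = 0.0583) or spleen replicate 3 (adjusted p = 0.0619). The iron exporter Slc40a1 (-1.02) and the hemoglobin scavenger Cd163 (-0.83) were lower in liver. Neither was called in the limma fit of all 29 libraries (adjusted p = 0.139 and 0.123). Nr1h3, encoding LXR-alpha, was at 42.6, 50.6 and 36.5 RPM in liver and 36.3, 32 and 38.7 RPM in spleen, which overlapped (log2 fold change 0.31 ± 0.16, adjusted p = 0.151).

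Genes of MHC class II presentation were higher in liver. Of the 14 genes, 12 were higher in liver and none was lower (the other 2 were H2-Eb2 and Ctss, named after their values were seen), with a median of 2.23, and counts of 12 and 0 were also found with liver replicate 1 alone. H2-Aa, H2-Ab1 and H2-Eb1, which encode chains of the peptide receptors, lie within the major histocompatibility complex on chromosome 17 (H2-Aa at chr17:34282744-34287823). H2-Aa was at 3615, 4801 and 4277 RPM in liver and 353, 409 and 389.6 RPM in spleen. The liver mean was 11 times the spleen mean, with no overlap (log2 fold change 3.49 ± 0.15, adjusted p = 5.29e-07). H2-Ab1 was at 1008, 1706 and 1443 RPM in liver and 143, 112 and 126 RPM in spleen (log2 fold change 3.45 ± 0.2, adjusted p = 2.26e-06). H2-Eb1 was at 3930.3, 4295 and 3604 RPM in liver and 403, 509 and 464 RPM in spleen (log2 fold change 3.15 ± 0.14, adjusted p = 5.29e-07). Neither overlapped between the organs.

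Cd74, the invariant chain that guides class II molecules to endosomes, was at 14318, 21424 and 19698 RPM in liver and 3461, 3762 and 3678 RPM in spleen. Its liver libraries were higher, with replicate 1 the lowest (log2 fold change 2.37 ± 0.19, adjusted p = 1.67e-05). Ciita, the coactivator that switches on class II genes, was at 233, 246 and 190.5 RPM in liver and 29.8, 38.3 and 31.7 RPM in spleen, with no overlap (log2 fold change 2.75 ± 0.14, adjusted p = 1.43e-06). Conventional dendritic cells, which carry much MHC class II, had 9 of 12 markers higher in liver (median 1.77). Among them, Flt3 was at 27.6, 21.4 and 18.1 RPM in liver and 4.75, 9.81 and 4.57 RPM in spleen and Zbtb46 at 21.2, 22.1 and 19.95 RPM in liver and 5.31, 6.93 and 4.64 RPM in spleen. Clec9a was at 92, 98.7 and 92.8 RPM in liver and 12.9, 16.2 and 13.4 RPM in spleen and Cd209a at 159, 124 and 102 RPM in liver and 6.78, 8.3 and 7.02 RPM in spleen. None of these markers was at 0 in either organ, all 4 were called higher, and their part in the class II difference was not tested.

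The window of 200 bases before the RefSeq start of H2-Aa (GRCm38.p6) is shown because it holds TGACGTCA, the letters bound by factors of the CREB family, which stand in capitals here and begin 74 bases before the start. Among MHC class II genes with a window, TGACGTCA was found in 1 of 9 called higher, H2-Aa itself, and in 0 of 2 not called higher, against 3.65% of the tested genes with one.
H2-Aa, chr17:34287824-34288023, minus strand: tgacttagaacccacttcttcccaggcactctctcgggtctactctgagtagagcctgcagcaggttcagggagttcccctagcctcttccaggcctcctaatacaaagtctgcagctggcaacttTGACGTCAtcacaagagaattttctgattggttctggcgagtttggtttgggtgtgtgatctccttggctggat

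Chemokine genes had the highest median of the lists that were not cell type markers, 3.18 (3.31 with the 1 gene that was at 0 in all spleen libraries set to its bound), with 19 of 22 tested genes higher and 2 lower. The counts with liver replicate 1 alone were 15 and 1. Cxcl9, an interferon-gamma induced chemokine for T cells, was at 315, 797 and 583 RPM in liver and 12.9, 12.6 and 13.2 RPM in spleen. Liver replicate 2 was the highest and the spleen libraries were nearly equal (log2 fold change 5.29 ± 0.29, adjusted p = 1.91e-06). Ccl22, a chemokine for regulatory T cells, was at 115, 163 and 128 RPM in liver and 3.91, 2.75 and 1.9 RPM in spleen (log2 fold change 5.2 ± 0.22, adjusted p = 5.29e-07). Ccl24, a chemokine for eosinophils, was at 75.9, 88.6 and 92.3 RPM in liver and 2.87, 0.618 and 1.41 RPM in spleen (log2 fold change 5.16 ± 0.29, adjusted p = 1.95e-06). The liver mean was 43.8 times the spleen mean for Cxcl9, 47.4 times for Ccl22 and 52.5 times for Ccl24. For Ccl17, which shares its receptor with Ccl22, 981 liver reads stood against 2 spleen reads, a ratio of 609 with a counting interval of 168 to 5035. The 2 genes that were lower, named after their values were seen, were Ppbp (-2.27), a platelet chemokine, and Ccl25 (-0.84).

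Chemokine receptors had 5 of 10 genes higher and 2 lower, which both passed the filter only through spleen. Ccr1, a receptor of inflammatory chemokines, was at 53.2, 94.1 and 63.9 RPM in liver and 7.34, 13.9 and 8.64 RPM in spleen, higher in every liver library (log2 fold change 2.75 ± 0.27, adjusted p = 5.21e-05). Ccr7, which guides dendritic cells to lymph nodes and is also on the dendritic cell list, was at 87.2, 273 and 181 RPM in liver and 18.9, 28.7 and 26 RPM in spleen (log2 fold change 2.74 ± 0.36, adjusted p = 3.10e-04). The 2 that were lower, Ccr3 (-2.83) of eosinophils and Cxcr2 (-1.6) of neutrophils, were named after their values were seen.

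Genes of alternative activation, the program set by interleukin 4, were higher for 16 of 20 and lower only for Cd163 (median 2.67), or 11 and 0 with liver replicate 1 alone. Retnla, a secreted protein induced by interleukin 4, was at 418, 389 and 431 RPM in liver and 42.5, 5.83 and 27.6 RPM in spleen. Spleen replicate 2 was well under the other spleen libraries, and the liver libraries were close to each other (log2 fold change 4.38 ± 0.53, adjusted p = 1.89e-04). Without spleen replicate 2 it was 3.57. With liver replicate 1 alone the log2 fold change of Retnla was 4.35 and its adjusted p 0.0636. Chemokines of this list (Ccl17, Ccl22 and Ccl24) are given above.

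**Figure D4:**
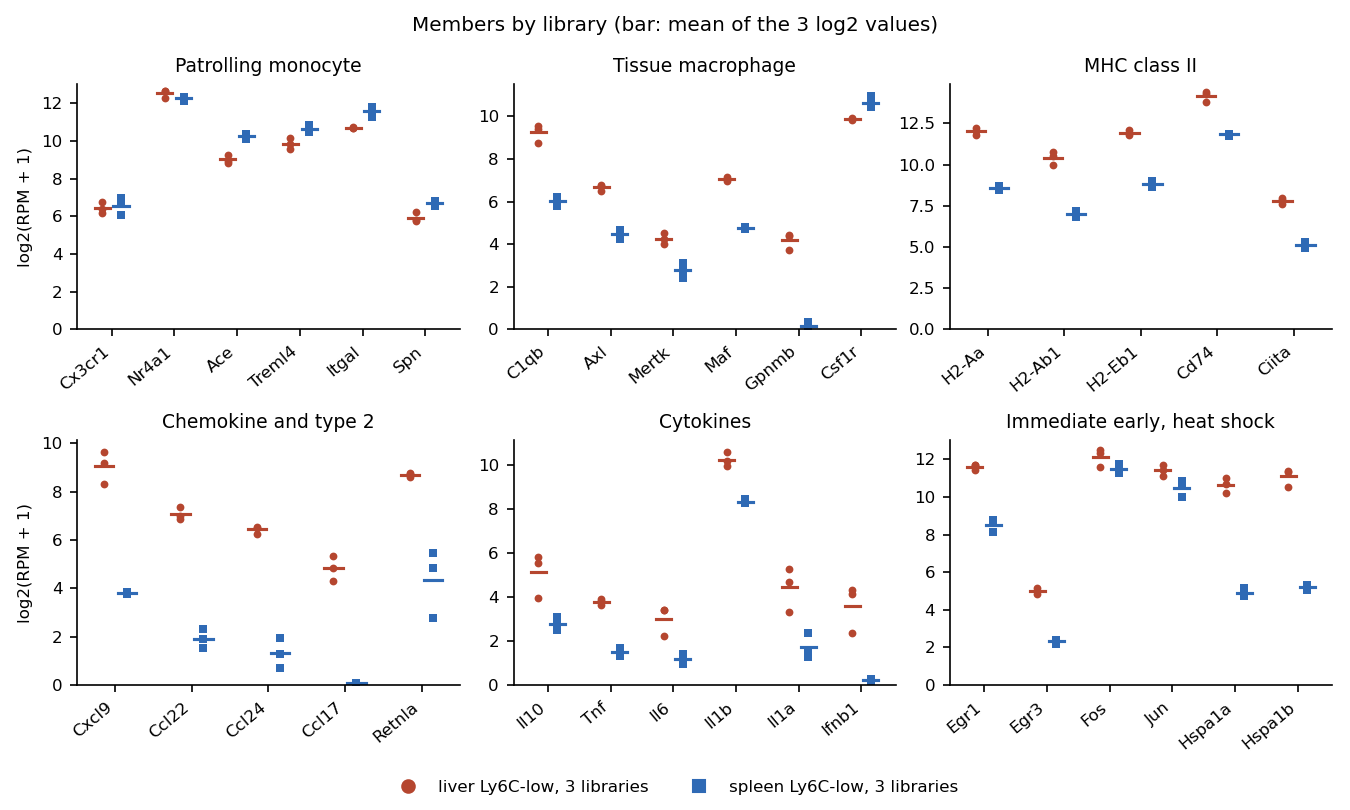
Levels as log2(RPM + 1) of genes of 6 groups, with a circle for each liver library, a square for each spleen library and a bar at the mean. H2-Aa, Cxcl9 and Hspa1b stand higher in all 3 liver libraries and Ace and Itgal lower, while Cx3cr1, Nr4a1 and Fos overlap.

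Among cytokine genes, 16 of 26 were higher in liver and none was lower (median 1.14), and 9 were higher with liver replicate 1 alone. Il1b, the inflammatory interleukin 1 beta, was at 986, 1179 and 1566 RPM in liver and 311, 317 and 348 RPM in spleen. All liver libraries were higher than the spleen libraries (log2 fold change 1.95 ± 0.18, adjusted p = 3.54e-05). Tnf was at 11.4, 14.2 and 13.2 RPM in liver and 1.82, 2.2 and 1.48 RPM in spleen (log2 fold change 2.34 ± 0.2, adjusted p = 2.98e-05). Ifnb1, encoding interferon beta, was at 4.14, 18.8 and 16.8 RPM in liver and 0.14, 0.137 and 0.211 RPM in spleen, with all spleen libraries at or below the level of 3 reads (log2 fold change 3.42 ± 0.46, with a log2 fold change of 4.06 without liver replicate 1).

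Il10, an anti-inflammatory cytokine, was at 14.7, 46.1 and 56.4 RPM in liver and 4.61, 5.56 and 7.52 RPM in spleen. Liver replicate 1 was the lowest of the liver but stood above all spleen libraries (log2 fold change 2.4 ± 0.43, adjusted p = 0.00176, with a log2 fold change of 3.0 without liver replicate 1). Il6 was at 3.64, 9.76 and 9.75 RPM in liver and 1.4, 1.65 and 0.913 RPM in spleen (log2 fold change 1.86 ± 0.35, adjusted p = 0.0021). Il1a was at 9.11, 24.8 and 37.8 RPM in liver and 1.96, 4.12 and 1.41 RPM in spleen (log2 fold change 2.74 ± 0.47, adjusted p = 0.00127). For the 3 genes, the comparison with liver replicate 1 alone gave log2 fold changes of 1.20, 1.01 and 1.60 with adjusted p of 0.0630, 0.0512 and 0.0820. The growth factors Vegfa (2.65) and Gdf15 (2.51) rose as well.

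The NF-kB response list had 17 of 40 genes higher and only Clec4e lower (median 0.47), with 9 higher and 2 lower with liver replicate 1 alone and 10 higher at a threshold of 2-fold. Cd83, an activation marker, was at 477, 1496 and 645 RPM in liver and 37.3, 102 and 39.8 RPM in spleen. Replicate 2 was the highest in both organs (log2 fold change 3.87 ± 0.45, adjusted p = 1.56e-04). Ptgs2, the inducible cyclooxygenase, was at 106, 158 and 212 RPM in liver and 8.81, 15.3 and 12.4 RPM in spleen (log2 fold change 3.62 ± 0.27, adjusted p = 1.08e-05). Sdc4, a heparan sulfate proteoglycan, was at 51.2, 97.1 and 86.3 RPM in liver and 6.43, 4.46 and 3.58 RPM in spleen (log2 fold change 3.78 ± 0.27, adjusted p = 9.30e-06). Tnip3, an inhibitor of the pathway, had a log2 fold change of 1.67. Clec4e, encoding the receptor Mincle, was at 88.4, 93.1 and 103 RPM in liver and 149, 162 and 145 RPM in spleen (log2 fold change -0.63 ± 0.12, adjusted p = 0.00258), and it changed by under 1.5-fold without liver replicate 1.

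The promoter windows of Cxcl9, Cxcl2 and Il6 are shown because each of these genes was called higher and holds GGGANTTTC, letters of an NF-kB site, in capitals on either strand. Cxcl2, a neutrophil chemokine, was chosen after its values were seen, and was at 218, 505 and 506 RPM in liver and 46.7, 48.9 and 39.6 RPM in spleen (log2 fold change 3.1 ± 0.3, adjusted p = 5.28e-05). Each window is the 200 bases before the RefSeq start in GRCm38.p6, written 5′ to 3′ on the strand of the gene.
Cxcl9, chr5:92328080-92328279, minus strand: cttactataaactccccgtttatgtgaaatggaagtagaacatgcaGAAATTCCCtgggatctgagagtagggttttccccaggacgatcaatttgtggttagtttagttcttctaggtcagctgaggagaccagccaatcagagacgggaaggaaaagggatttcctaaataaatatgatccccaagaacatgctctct
Cxcl2, chr5:90903699-90903898, plus strand: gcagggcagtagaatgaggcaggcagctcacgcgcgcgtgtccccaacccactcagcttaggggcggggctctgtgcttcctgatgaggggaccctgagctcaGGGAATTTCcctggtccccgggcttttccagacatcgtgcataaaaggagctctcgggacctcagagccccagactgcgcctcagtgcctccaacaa
Il6, chr5:30012914-30013113, plus strand: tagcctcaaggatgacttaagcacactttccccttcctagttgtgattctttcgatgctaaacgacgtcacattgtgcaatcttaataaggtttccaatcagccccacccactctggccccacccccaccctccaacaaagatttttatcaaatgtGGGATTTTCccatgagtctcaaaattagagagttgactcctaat
The matches begin 154, 97 and 44 bases before the start, in this order. Over the whole window of 300 bases, from 250 before to 50 after a start, GGGANTTTC was found in 1 of 13 genes of the NF-kB list called higher and in 2 of 19 not called higher, against 1.29% of all 27025 genes with a window and 1.28% of the tested genes with one. The gene among these 13 was Nfkbia. Cxcl9, Cxcl2 and Il6 were taken from the chemokine and cytokine lists, for which no share was computed.

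Interferon-stimulated genes were higher for 15 of 33 and lower for none (median 0.63), with 9 higher at a threshold of 2-fold. Ifi44 was at 20.03, 14 and 18.6 RPM in liver and 1.82, 1.58 and 2.6 RPM in spleen (log2 fold change 2.66 ± 0.21, adjusted p = 1.67e-05). Gbp2, a guanylate-binding protein induced by interferons, was at 97.9, 93 and 84.4 RPM in liver and 17.3, 20.04 and 18.1 RPM in spleen (log2 fold change 2.29 ± 0.13, adjusted p = 2.10e-06). Ifit1, which binds foreign RNA caps, was at 31.7, 25.9 and 26.5 RPM in liver and 7.41, 8.17 and 6.39 RPM in spleen (log2 fold change 1.84 ± 0.16, adjusted p = 3.33e-05). The liver libraries of the 3 genes were close to each other and above all spleen libraries. Oasl1 was at 19.6, 16.8 and 33.2 RPM in liver and 9.44, 3.29 and 5.97 RPM in spleen (log2 fold change 1.81 ± 0.34, adjusted p = 0.00214), with an adjusted p of 0.110 with liver replicate 1 alone. Rsad2, encoding viperin, was at 11.6, 3.05 and 13.2 RPM in liver and 6.08, 2.75 and 6.11 RPM in spleen. Its replicate 2 was the lowest library in both organs (log2 fold change 0.68 ± 0.45, adjusted p = 0.244), and with the replicate number as a block the same fold change had an adjusted p of 0.0237. Without liver replicate 2 Rsad2 was called higher (log2 fold change 1.25, adjusted p = 0.0114).

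Windows of the 4 named interferon-stimulated genes that rose are shown with the letters TTTCNNTTT, the core of an interferon response element, in capitals on either strand. TGANTCA, the letters of an AP-1 site, is also in capitals in Gbp2, and was found in 1 of 9 genes of this list called higher that had a window, in 5 of 14 not called higher and in 6.16% of the tested genes with one.
Ifi44, chr3:151749911-151750110, minus strand: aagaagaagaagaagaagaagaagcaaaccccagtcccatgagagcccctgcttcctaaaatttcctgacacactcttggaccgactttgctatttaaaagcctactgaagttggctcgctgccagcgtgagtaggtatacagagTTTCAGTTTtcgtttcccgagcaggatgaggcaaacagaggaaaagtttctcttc
Gbp2, chr3:142620463-142620662, plus strand: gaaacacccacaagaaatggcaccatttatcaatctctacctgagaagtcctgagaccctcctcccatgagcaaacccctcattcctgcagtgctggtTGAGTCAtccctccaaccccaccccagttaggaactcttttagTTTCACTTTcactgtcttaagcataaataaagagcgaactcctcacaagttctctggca
Ifit1, chr19:34640689-34640888, plus strand: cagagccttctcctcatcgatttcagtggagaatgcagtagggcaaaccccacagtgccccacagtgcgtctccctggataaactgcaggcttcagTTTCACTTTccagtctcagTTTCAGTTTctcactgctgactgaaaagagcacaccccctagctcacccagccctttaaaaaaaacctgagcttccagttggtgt
Oasl1, chr5:114923040-114923239, plus strand: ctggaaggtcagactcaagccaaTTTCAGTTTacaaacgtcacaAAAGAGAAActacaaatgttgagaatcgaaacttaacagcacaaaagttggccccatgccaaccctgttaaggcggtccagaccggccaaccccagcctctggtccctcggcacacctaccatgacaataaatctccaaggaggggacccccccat
The element begins 55 bases before the start in Ifi44, 59 in Gbp2, 104 and 85 in Ifit1 and 177 and 156 in Oasl1. It was found in 7 of 9 interferon-stimulated genes called higher that had a window and in 10 of 14 that were not called higher, against 12.1% of all genes with a window and 10.1% of the tested ones. A match describes these letters only.

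Immediate early genes, which switch on within minutes of a stimulus, were higher for 21 of 39 and lower for 2 (median 0.80), and for 13 and 3 with liver replicate 1 alone. Egr1, a zinc finger transcription factor, was at 2756, 3306 and 3341 RPM in liver and 403, 279 and 433 RPM in spleen. Liver libraries were all above the spleen, and the liver mean was 8.43 times the spleen mean (log2 fold change 3.13 ± 0.18, adjusted p = 2.26e-06). Nr4a2, a relative of Nr4a1, was at 24.5, 26.1 and 30.6 RPM in liver and 3.21, 2.4 and 3.51 RPM in spleen (log2 fold change 2.84 ± 0.2, adjusted p = 6.58e-06). Egr3 (2.72) and Ier3 (2.79) were higher too. Jun, a subunit of AP-1, was at 2775, 2244 and 3303 RPM in liver and 1818, 1028 and 1579 RPM in spleen (log2 fold change 0.98 ± 0.22, adjusted p = 0.00572). Fos, its partner, was at 3073, 5137 and 5788 RPM in liver and 3399, 2446 and 2870.2 RPM in spleen, with spleen replicate 1 above liver replicate 1. The change of Fos (log2 fold change 0.69 ± 0.25, adjusted p = 0.0461) was called with all 6 libraries but lost its call when any of liver replicates 2 and 3 or the spleen replicates was left out, with adjusted p of 0.0589 to 0.175. Nfil3 (-1.49) and Klf4 (-0.73) were lower in liver, and Klf4 lost its call without liver replicate 1 or 2 or spleen replicate 1 or 3 (adjusted p of 0.0636 to 0.104).

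Heat shock genes had 7 of 10 higher and 1 lower (median 1.21), with 4 and 1 with liver replicate 1 alone. Hspa1a and Hspa1b are near-identical neighbours on chromosome 17 that encode the inducible chaperone HSP70, so that reads may be shared between them. Hspa1a was at 1189, 1623 and 2082 RPM in liver and 27, 34 and 26 RPM in spleen. Hspa1b was at 1499.7, 2611 and 2629.6 RPM in liver and 39.3, 38.9 and 32 RPM in spleen. The liver means were 56.2 and 61.2 times the spleen means (log2 fold change 5.78 ± 0.21, adjusted p = 3.46e-07 for Hspa1a and log2 fold change 5.9 ± 0.22, adjusted p = 3.46e-07 for Hspa1b). Their cochaperones Dnajb1 (2.03) and Hsph1 (1.72) were higher in all liver libraries, and Hsf1, the factor that drives heat shock genes, was lower at 22.3, 20.7 and 19.2 RPM in liver and 52.3, 46.7 and 53.1 RPM in spleen (log2 fold change -1.21 ± 0.14, adjusted p = 1.24e-04). In the KC libraries, also from livers, Hspa1b was at 103 to 246 RPM and Egr1 at 148 to 544 RPM. The livers and not the spleens went through the heated dissociation, and what the preparation added cannot be told apart from what the organ did.

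The promoter window of Maff, an immediate early gene chosen after its values were seen and at 51.5, 161 and 148 RPM in liver and 18.2, 15.3 and 16.4 RPM in spleen (log2 fold change 2.66 ± 0.38, adjusted p = 4.58e-04), holds TGACGTCA and the EGR letters GCGTGGGCG, both in capitals.
Maff, chr15:79347320-79347519, plus strand: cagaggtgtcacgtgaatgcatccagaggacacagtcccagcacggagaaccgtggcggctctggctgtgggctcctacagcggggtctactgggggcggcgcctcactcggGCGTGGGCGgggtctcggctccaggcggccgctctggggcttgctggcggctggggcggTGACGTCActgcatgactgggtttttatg
They begin 29 and 88 bases before the start. TGACGTCA was in 2 of 16 immediate early genes called higher, in 2 of 16 not called higher, in 2.03% of all genes with a window and in 3.65% of the tested ones. GCGTGGGCG was in 1 of 16 and 0 of 16, in the same order, and in 1.39% of the tested ones.

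Matrix and protease genes had 17 of 28 members higher and 3 lower (median 1.64, or 1.67 with 2 genes set to their bound). Spp1, encoding osteopontin, was at 126, 51.9 and 49.8 RPM in liver and 0.28, 0.961 and 0.492 RPM in spleen. Spp1 was highest in liver replicate 1, where the endothelial and hepatocyte sums were lowest (log2 fold change 5.52 ± 0.32). The part of other cell types in this difference was not tested. Mmp12, macrophage elastase, was at 111, 58.7 and 114 RPM in liver and 1.61, 1.17 and 1.83 RPM in spleen (log2 fold change 5.22 ± 0.25, adjusted p = 9.37e-07). Mmp13, a collagenase, was at 41.6, 48 and 61 RPM in liver and 0.419, 0.686 and 0.492 RPM in spleen (log2 fold change 5.08 ± 0.21). The urokinase gene Plau (5.04) was higher, and Mmp8 (-2.53), Mmp9 (-1.65) and Adamdec1 (-0.74) were lower. The neutrophil list also holds Mmp8 and Mmp9.

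Toll-like receptor and nucleic acid sensing genes had 10 of 25 higher and 1 lower (median 0.48). Tlr12, a receptor for profilin, was at 13.3, 21.7 and 21.5 RPM in liver and 0.769, 1.24 and 0.913 RPM in spleen (log2 fold change 3.34 ± 0.25, adjusted p = 1.07e-05). Tlr2, for bacterial lipoproteins, was at 54.5, 59.3 and 48.9 RPM in liver and 17.8, 16.7 and 18.8 RPM in spleen (log2 fold change 1.6 ± 0.14, adjusted p = 3.46e-05). Tlr11 (2.01) and the accessory protein gene Ly86 (1.32) were higher. Slc15a4, an endolysosomal transporter required for signalling of nucleic acid receptors, was at 78.9, 72.8 and 68.1 RPM in liver and 217, 168 and 167 RPM in spleen, lower in each liver library (log2 fold change -1.27 ± 0.13, adjusted p = 8.77e-05). The X-linked receptors were not tested, since the members are autosomal. Tlr13, the sensor of bacterial ribosomal RNA, was at 54.1, 27.8 and 30.1 RPM in liver and 107, 86.5 and 74.5 RPM in spleen, lower in all liver libraries. Tlr7, a sensor of single-stranded RNA, was at 490.4, 278 and 399 RPM in liver and 479, 298 and 331 RPM in spleen, which overlapped.

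Complement genes had 6 of 14 higher and 1 lower (median 0.38), or 4 and 1 of the 12 whose calls the filter did not set. C3ar1, the receptor for the anaphylatoxin C3a, was at 51.7, 76.4 and 72 RPM in liver and 1.89, 1.92 and 1.69 RPM in spleen (log2 fold change 4.6 ± 0.2, adjusted p = 5.29e-07). Cd55, an inhibitor of complement, was at 6.46, 21.5 and 27.6 RPM in liver and 0.629, 1.85 and 1.54 RPM in spleen (log2 fold change 2.92 ± 0.46, adjusted p = 8.81e-04, with a log2 fold change of 3.54 without liver replicate 1), and C4b had a log2 fold change of 2.3. Fc receptor genes had 4 of 12 higher and 2 lower (median 0.02, with 3 and 1 with liver replicate 1 alone, and 4 and 1 of 11 without Fcgr4). Outside the 1 Fc receptor gene that passed the filter only through liver, 3 of 11 were higher and 2 lower, with Fcgr4 included. The inhibitory receptor Fcgr2b was at 61.7, 58.5 and 57.4 RPM in liver and 27.7, 27.9 and 28.3 RPM in spleen (log2 fold change 1.09 ± 0.12, adjusted p = 1.22e-04). Fcgr1 (0.8) and Fcgr3 (0.72) were higher by less than a doubling. Fcgr4, the gated receptor, was at 501, 405 and 398 RPM in liver and 781, 769 and 821 RPM in spleen, and the kinase gene Syk (-0.64) was lower, by less than 1.5-fold without liver replicate 2. Of the other gated genes, Itgam was at 1518, 1338 and 1404 RPM in liver and 2089, 1754 and 2166 RPM in spleen and Adgre1 at 331, 269 and 318 RPM in liver and 119, 101 and 135 RPM in spleen.

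The list of LXR and other lipid genes had 10 of 29 members higher and none lower (median 0.11). With liver replicate 1 alone fewer were called higher and some lower. Outside the 1 lipid gene that passed the filter only through liver, 9 of 28 were higher and none lower. Apoc1, an apolipoprotein, was at 17.3, 108 and 66.4 RPM in liver and 6.36, 8.65 and 6.81 RPM in spleen, with a wide spread among the liver libraries (log2 fold change 2.68 ± 0.53, adjusted p = 0.00299, with a log2 fold change of 3.45 without liver replicate 1). Lpl, lipoprotein lipase, was at 91.4, 106 and 115 RPM in liver and 47.3, 49.3 and 45.9 RPM in spleen (log2 fold change 1.15 ± 0.14, adjusted p = 1.81e-04). Npc2 (1.26) and Sqle (1.22), which handle cholesterol, were higher. Iron and heme genes split, with 4 of 15 higher and 5 lower, of which 1 each was set by the filter (median -0.23, with 2 and 3 with liver replicate 1 alone). The transferrin receptor Tfrc was at 26.6, 22.2 and 20.1 RPM in liver and 8.67, 10.6 and 11.2 RPM in spleen (log2 fold change 1.14 ± 0.17, adjusted p = 6.67e-04), and Nfe2l2, encoding NRF2, had a log2 fold change of 1.0. Ireb2 (-1.37), Slc48a1 (-0.87) and Slc40a1 were lower, as was the neutrophil gene Lcn2.

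Transcription factors of tissue macrophages had 15 of 30 members higher and 4 lower (median 0.63, with 8 and 2 with liver replicate 1 alone). Tfec (2.16) and Maf were higher. Smad3 was at 45.3, 57.7 and 45.3 RPM in liver and 110.0, 120.0 and 109 RPM in spleen (log2 fold change -1.14 ± 0.14, adjusted p = 2.32e-04), and Cebpb, a factor required by Ly6C low monocytes, was at 1799, 1446 and 1935 RPM in liver and 3446, 2661 and 3118 RPM in spleen (log2 fold change -0.79 ± 0.15, adjusted p = 0.00267). Both were lower in each liver library. Genes of glycolysis and hypoxia had 3 of 21 higher and 2 lower (median -0.23). Aldoa (0.9) was higher, and Ddit4, a stress-induced inhibitor of mTOR (-1.22), and the lactate exporter Slc16a3 (-1.09) were lower.

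Cell cycle genes had 10 of 31 members higher and none lower (median 0.46). Outside the 1 gene that passed the filter only through liver, 9 of 30 were higher. Mki67, the proliferation marker, was at 20.7, 24.8 and 26.8 RPM in liver and 4.96, 13 and 5.27 RPM in spleen. Spleen replicate 2 was above the other spleen libraries but below the liver (log2 fold change 1.67 ± 0.31, adjusted p = 0.00195). Bub1b, of the spindle checkpoint, was at 31.5, 26.3 and 29.3 RPM in liver and 11.3, 17.4 and 11.8 RPM in spleen (log2 fold change 1.11 ± 0.18, adjusted p = 0.00111), and Birc5 had a log2 fold change of 1.02. This count rested on few libraries, since it was 16 without spleen replicate 2, 5 without spleen replicate 3, 6 without a filter on low values, 4 in the fit of all 29 libraries and 2 with liver replicate 1 alone. In the cytokine, MHC class II, interferon-stimulated, lipid and cell cycle lists, which had no lower gene by limma, edgeR and DESeq2 on recovered reads called 0 lower as well. With RPM as deposited 1 cytokine gene was called lower, and with TMM scaling 1 cytokine and 1 lipid gene. With 1 library left out, up to 2 lipid genes, 1 cytokine gene and 1 interferon-stimulated gene were called lower. An unadjusted p below 0.05 with a lower level in liver was found for 1 cytokine gene, 1 interferon-stimulated gene and 3 lipid genes, and for 0 genes of MHC class II and of the cell cycle.

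To see where the organ difference depended on the subset, the same comparison was made in the Ly6C high macrophages, with 3 libraries per organ of the same genotype. Of 10289 genes tested there, 3902 (37.9%) were called, 1749 (17.0%) higher and 2153 (20.9%) lower in liver. Of the 1898 genes higher in Ly6C low liver, 1682 were tested in Ly6C high, where 880 were higher, 161 lower and 641 not called. Of the 1584 lower genes, 1541 were tested, and 722 were lower, 24 higher and 795 not called. The organ difference itself differed between the subsets for 2210 of 11848 genes (18.7%), being more positive in Ly6C low for 1273 (10.7%) and more negative for 937 (7.91%). Without scaling factors the Ly6C high counts became 1108 and 3317, with a shift of the median log2 fold change of -0.26, and the interaction counts 1755 and 429, so that the interaction counts of lists are given under both. In Ly6C high, Y-linked genes summed to 28.95 and 42.1 RPM in liver replicates 2 and 3, to 0 in liver replicate 1 and to at most 0.14 RPM in spleen. With liver replicate 1 alone in each subset the Ly6C high counts were 2030 and 2295 and the interaction counts 1302 and 1146, and the interaction was then positive for 29 cell cycle genes, positive for 7 and negative for 4 alternative activation genes, negative for 22 NF-kB genes and negative for 13 patrolling monocyte genes.

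Cell cycle genes differed between the subsets. In Ly6C high cells all 31 were lower in liver, and the interaction was positive for all 31 (31 without scaling factors). Markers of other cells also differed between the organs in Ly6C high. Neutrophil markers summed to 32166 to 34448 RPM in spleen Ly6C high and 439 to 2658 RPM in liver Ly6C high. In the same order the sums were 1341 to 1418 RPM and 156 to 186 RPM for NK cell, 422 to 458 RPM and 20.3 to 42.2 RPM for T cell, 647 to 735 RPM and 163 to 252 RPM for plasma cell, and 105 to 109 RPM and 0.463 to 3.76 RPM for erythroid markers. Endothelial and hepatocyte sums went the other way. They were 63.4 to 116 RPM and 38.9 to 60.3 RPM in liver Ly6C high, and 7.56 to 10.5 RPM and 0.416 to 0.624 RPM in spleen Ly6C high. The part of all these cell types in the Ly6C high and interaction results was not tested. For Mki67 the log2 fold change was -3.03 ± 0.28 in Ly6C high and 1.67 ± 0.31 in Ly6C low, a difference of 4.69 ± 0.47 (adjusted p = 1.28e-05). The patrolling monocyte list had 8 of 20 genes higher and 2 lower in Ly6C high, and 12 of 21 interactions were negative and 2 positive (12 and 2 without scaling factors). Treml4 was 1.07 in Ly6C high against -0.76 in Ly6C low, and Cd36 2.67 against -0.4, with interactions of -1.85 ± 0.24 and -3.09 ± 0.18 (adjusted p = 1.07e-04 and 3.49e-07).

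Of the NF-kB list, 30 of 40 genes were higher in Ly6C high and 20 interactions were negative (14 without scaling factors). Cd83 rose by 6.76 ± 0.28 in Ly6C high, more than in Ly6C low (interaction -2.9 ± 0.63, adjusted p = 0.0052). Alternative activation genes had the reverse pattern, with 12 interactions positive and 2 negative among the 20 tested (12 and 2 without scaling factors). Of these 20, 18 passed the filter in Ly6C high, and 4 passed it in Ly6C low only through liver. The filter therefore favoured part of the positive count. For Retnla the Ly6C high value was 1.53 (log2) with an interaction of 2.84 ± 0.65 (adjusted p = 0.00742). DESeq2 on recovered reads gave 1.63 for this interaction and did not call it (adjusted p = 0.168), and without spleen Ly6C low replicate 2 it was 2.05. With liver replicate 1 alone its adjusted p was 0.160. MHC class II had 9 of 14 genes higher and 2 lower in Ly6C high, and 8 positive and 2 negative interactions (10 and 2 without scaling factors). Dendritic cell markers had 9 positive and no negative interactions (10 and 0). Heat shock genes had 7 higher and 2 lower in Ly6C high and no interaction call in either direction by limma, with 3 of them at an unadjusted p below 0.05, and 1 positive call without scaling factors.

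**Figure D5:**
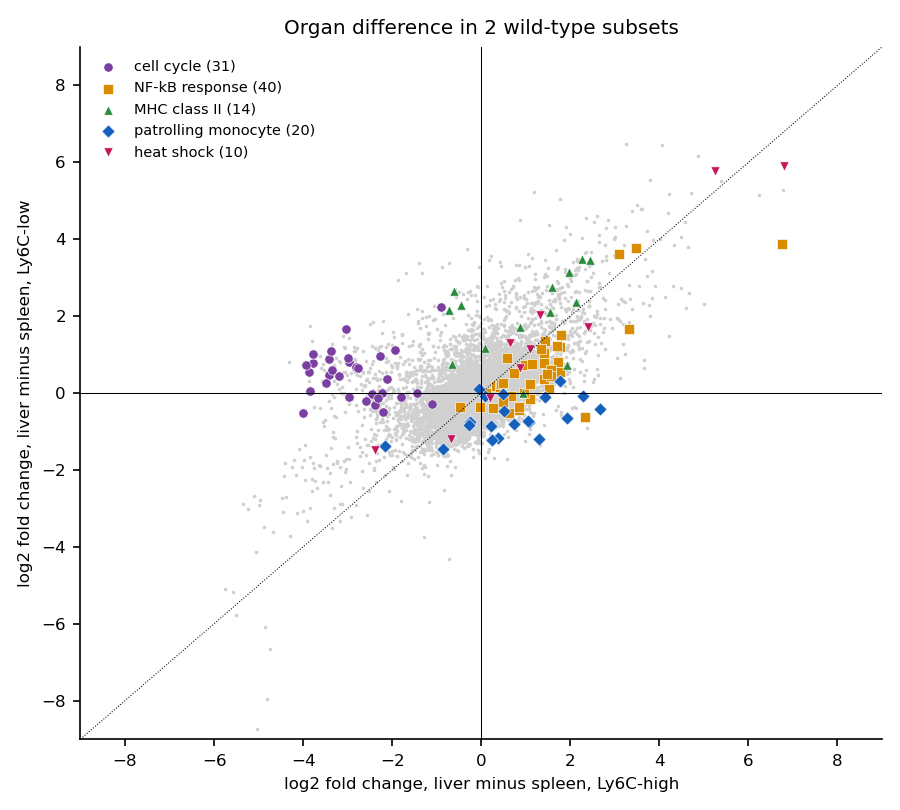
Log2 fold changes of liver over spleen in Ly6C high (horizontal axis) and Ly6C low (vertical axis) for genes tested in both (grey) and for the members of 5 lists (coloured), with a diagonal line of equal change. The 31 cell cycle genes lie to the left of 0 and above the line, and patrolling monocyte genes lie mostly under it.

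Compared with the KCs, of which 4 wild-type libraries were made, levels were set side by side library by library. Of the 1898 genes higher in liver, every KC library was above every Ly6C low liver library for 782 (41.2%) and below for 410 (21.6%), against 43.2% and 14.6% of all tested genes. All KC libraries exceeded all Ly6C low spleen libraries for 1339 of them (70.5%), against 41.1% of all tested genes. Of the 1584 genes lower in liver, every KC library was above every Ly6C low liver library for 849 (53.6%) and below for 230 (14.5%). All KC libraries were below all Ly6C low spleen libraries for 661 of them (41.7%), against 18.4% of all tested genes, and above for 245 (15.5%). Both sets of genes were called from these same Ly6C low liver and spleen libraries. Part of each difference from all tested genes was therefore set by that choice, and the shares are a description. Retnla was at 1.57 to 9.48 RPM in the KCs and Ccl22 at 16.2 to 52.3 RPM, below the Ly6C low liver libraries. H2-Aa was at 1745 to 2352 RPM, also below. C1qb, at 1442 to 3600.2 RPM, and Maf, at 601 to 982 RPM, were above. No test was made of these orders.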

How the data were processed

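RNA of sorted macrophages was measured with the Ion AmpliSeq Transcriptome Mouse panel, which reads 1 amplicon per gene, on the Ion Proton. The authors deposited RPM values, made with AmpliSeqRNA plug-in v5.2.0.3 and Torrent Suite v5.2.2 (mm10, per the labels). The RPM steps gave whole reads for 100% of values within 0.1 read. Of 23930 genes, 21334 matched GENCODE vM21 and 969 and 428 RefSeq symbols and synonyms, 1199 were unmatched, and 21920 were autosomal. Columns of the table were mapped to the labels by name, and 0 were left unused.

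Values were divided by relative log expression factors, log2(RPM + 1) was taken, and limma 3.58.1 (R 4.3.3, trend, two-sided) was fitted to the 6 libraries with genes at 1 RPM or more in at least 3. All fold changes are on the log2(RPM + 1) scale, which understates low genes, ± is the SE, and p-values are Benjamini-Hochberg adjusted over all tested genes. The study's own threshold was used. An exact permutation test of 3 against 3 cannot go below 0.1. Intervals (95%) and floors (3 reads) cover counting error only. The interaction was fitted to the 12 wild-type Ly6C low and Ly6C high libraries. Members and lists were chosen with earlier results of these data known. Named were the 12 largest changes each way at 10 RPM or more without overlap, up to 4 called members per list and direction, a set of genes always given, the 5 largest interactions each way, and defining markers, and a few genes that met this rule are not reported here.

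Liver and spleen libraries of the same number had correlated deviations (0.14, 0.40 and 0.10 for numbers 1, 2 and 3), so the block is reported where it changes a call. Libraries of different numbers ranged from -0.31 to 0.24, and for numbers 1 and 3 the crossed pairs (0.17 and 0.24) correlated more than the same-numbered ones. Alternatives were another added value (0.1), no filter, no or TMM scaling, all 29 libraries, the block, DESeq2 1.42.0 and edgeR 4.0.16 on the recovered read counts, other thresholds, all chromosomes and each library left out. Liver replicate 1 alone was added after the data were seen. Promoters (RefSeq GRCm38.p6) were matched by symbol, for 1407 of 1898 higher and 1239 of 1584 lower genes, and 5 motifs (TGACGTCA, TGANTCA, GGGANTTTC, TTTCNNTTT and GCGTGGGCG) were searched on both strands. Macrophages lacking RNase T2 entered only the fit of all libraries.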

Additional observations from a re-analysis of the deposited data

Results flagged for a closer look

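The organ difference of several named genes was not the same in Ly6C low and Ly6C high macrophages (limma interaction, log2 units, Ly6C low minus Ly6C high, 3 libraries per group). Of 151 tested genes that met the naming rule, 47 were positive, 33 negative and 71 were not called, against 10.7% positive and 7.91% negative of all genes tested, but the rule itself took in the largest interactions and organ differences. It was positive for Ccr2 (1.98), Cd5l (3.71), C1qb (1.55), Retnla (2.84), Mki67 (4.69) and H2-Aa (1.21), and largest for Cdca3 (5.57), 2810417H13Rik (5.15) and Iqgap3 (5.12) among the genes that passed the filter through more than 1 group. It was negative for Tnf (-1.30), Il6 (-1.47), Il1b (-1.12), Nr4a1 (-1.47), Ace (-1.58), Treml4 (-1.85), Itgal (-1.10), Nr1h3 (-2.01), the gated Fcgr4 (-2.24) and Csf1r (-1.23), and lowest for Ngp (-3.73), Retnlg (-3.61), Dusp16 (-3.29), S100a9 (-3.18) and Cd36 (-3.09). Cdca3, 2810417H13Rik and Iqgap3 are genes of dividing cells. Clec4f (2.85), Cd207 (5.67) and Mmp13 (4.86) passed it only through liver Ly6C low, so that their positive values were set by the filter and are a description. The call of Il6 was lost with 0.1 added, with RPM as deposited, with DESeq2 and in 6 fits with 1 library left out (adjusted p of 0.0543 to 0.0823), that of Tnf with RPM as deposited and in 6 such fits (up to 0.0752), that of S100a9 in 3 (0.0512 to 0.0573) and that of Retnla with DESeq2 (0.168). With liver replicate 1 alone in each subset, Ngp (-1.42, adjusted p = 0.142), Tnf (-0.94, adjusted p = 0.132) and Retnla (2.94, adjusted p = 0.160) were not called. With 1 library left out, Ngp ran from -4.88 to -3.09 and S100a9 from -4.13 to -2.55, and Retnlg was -4.41 without liver Ly6C high replicate 1. The causes were not tested.

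In data outside the comparison, Y-linked genes summed to 52.7 RPM in liver replicate 2 and 52.0 RPM in liver replicate 3, and to 0 in the 3 spleen libraries and liver replicate 1. In the Ly6C high libraries they summed to 28.95 RPM in liver replicate 2 and 42.1 RPM in liver replicate 3, and to 0 in liver replicate 1.

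Among 34 genes screened in the 4 KC libraries, replicate 3 stood apart from the other 3, by Dixon's gap test at the 95% level, for Alb (3408 RPM), Clec1b (297 RPM), Timd4 (166 RPM) and Cd5l (2098 RPM). It was the highest library for Alb and the lowest for the 3 other genes. At that level chance alone sets 1 library apart in about 1 in 20 groups.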

How the results depend on the processing

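No gene was called in the opposite direction in any alternative, and the counts of 1898 higher and 1584 lower genes stayed within 1.5 times except in a few. At a threshold of 2-fold they were 1154 and 520, at an adjusted p of 0.1 with no fold threshold the lower count was 2669, and with liver replicate 1 alone, where its spread was taken from the spleen, they were 1135 and 974. With 1 library left out they ran from 1611 to 1961 and from 1367 to 1680. TMM scaling gave 1727 and 1865, so that 48.1% of calls were higher instead of 54.5%, and no filter gave 2483 and 1434 (63.4%). In Ly6C high, the counts without scaling factors were 1108 and 3317, and with 1 library left out ran from 1578 to 1912 and from 1969 to 2309. The interaction counts ran from 1016 to 1459 and from 693 to 1202, and the negative count was 429 without scaling factors. Of 141 called genes that met the naming rule, 97 kept their call in all 18 settings. Over 2538 gene and setting pairs, 2427 stayed on their side, 111 lost the call and 0 turned. Of the 6 genes that met this rule, were tested and were not called, Cx3cr1 (-0.087) changed sign, to 0.10 without spleen replicate 3, 0.03 without liver replicate 2 and 0.18 with liver replicate 1 alone, and was lowest at -0.35 without spleen replicate 2. With the replicate number as a block 2005 genes were higher and 1664 lower, and among the genes that met the naming rule only Rsad2 (adjusted p = 0.0237) and the interaction of Aldoa (adjusted p = 0.0630) changed side. At a threshold of 2-fold, 5 patrolling monocyte and 5 adhesion genes were lower and 4 cell cycle genes higher. Beside those given above, the limma fit of all 29 libraries lost the calls of Vcam1 (adjusted p = 0.197), Adamdec1 (0.245), Clec4e (0.439) and Klf4 (0.270). It also lost those of Cebpb (0.0743), Birc5 (0.101), Cd5l (0.132), Fcgr1 (0.0911), Fcgr3 (0.0984), Fos (0.0615), Lpl (0.0581) and Mmp9 (0.0547). At this depth 3 reads were 0.206 to 0.268 RPM, under which no organ difference was detectable.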
